A study of Mus musculus with 2 samples.

Results

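NF-kB is a family of dimeric transcription factors built from 5 subunits, which are encoded by Nfkb1, Nfkb2, Rel, Rela and Relb. The 10 genes described here are these subunits and 5 genes grouped here as inhibitors of the pathway, Nfkbia, Nfkbiz, Nfkbid, Tnfaip3 and Bcl3. They were chosen by name from the pathway, with earlier results of these data known, and make up 10 of the 32285 genes in the matrices. Lung group 2 innate lymphoid cells (ILC2s), tissue-resident lymphocytes that secrete type 2 cytokines, were sorted from WT (Pac1+/+) and Pac1-/- mice and profiled by droplet-based scRNA-Seq. The Pac1-/- mice were on a C57BL/6J background, and Pac1 is the older name of Dusp2, which encodes the phosphatase PAC1. Each genotype gave 1 library of cells pooled over mice, the mice being 6 to 8 weeks old and matched for age and sex, and the labels give no treatment. The comparison asked what loss of PAC1 does to the ILC2 transcriptome, and here also which cells of a library carry the members. With 1 library per genotype nothing had a replicate check, so no p value was computed and every 95% interval covers counting error only.

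In resting cells NF-kB dimers are held in the cytoplasm by IkB proteins. Receptors for IL-33, IL-1, IL-18 and TNF family ligands activate the IkB kinase complex, IkB is degraded, and the dimers enter the nucleus. Among the genes they then switch on are their own inhibitors, so that the pathway ends its own activity. IL-33 is a major activator of lung ILC2s and signals through ST2, the product of Il1rl1, to this pathway. RNA levels show how much transcript of a subunit or inhibitor a cell holds, not the activity of the protein.

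The promoters of the members were searched for the letters that NF-kB dimers are known to prefer. RefSeq promoter windows of GRCm38.p6, from 250 bases before to 50 bases after an annotated start, were at hand for 7 of the 10 members (12 windows). Those of Nfkb1, Relb and Nfkbiz were not used here. The loose form of the motif, GGGNNNNNCC on either strand, was present in 12 of 12 member windows and in 50.8% of all 32851 windows, so it separates little. The strict form, GGGNNTTTCC, is contained in the loose one. It was present in the windows of 4 of the 7 members, Nfkbia, Tnfaip3, Rel and Nfkb2, and in 1.89% of all genes in the table. A match describes letters and does not show binding. Bcl3, Nfkbid and Rela had no strict match in their windows. The 250 bases before the start of Nfkbia, the most abundant member and the gene of the IkB protein that closes the feedback loop, are shown because they hold both forms. They lie on the minus strand of chromosome 12 at chr12:55492648-55492897, next to the gene itself (chr12:55489410-55492647), and capitals mark the motif matches, the one closest to the start being the strict form read on the other strand.

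Nfkbia, 250 bases upstream: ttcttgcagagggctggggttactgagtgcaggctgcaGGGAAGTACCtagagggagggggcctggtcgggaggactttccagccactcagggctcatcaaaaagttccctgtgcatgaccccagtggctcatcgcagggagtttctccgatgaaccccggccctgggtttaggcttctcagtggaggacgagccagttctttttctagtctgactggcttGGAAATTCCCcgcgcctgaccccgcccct

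The strict matches of the other 3 members are shown with the bases around them, cut off at the annotated start, and capitals mark the match. Those of Tnfaip3 (chr10:19015413-19015422) and Rel (chr11:23771051-23771060) read on the strand opposite to the gene and spell GGGGATTTCC there, the same 10 letters in both. Rel spans chr11:23736847-23770970, Tnfaip3 chr10:19000910-19015657 and Nfkb1 chr3:135584655-135691547, all protein-coding genes on the minus strand. The start used for Tnfaip3 is a RefSeq one, and the match before it lies inside the span given here for the gene. Nfkb2 has several annotated starts, the gene spanning chr19:46304320-46312385 on the plus strand in GENCODE, and a strict match before 2 of those in RefSeq (chr19:46304726-46304735 and chr19:46305705-46305714), both inside that span.

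Tnfaip3, match beginning 12 bases before the start: aatttccatcGGAAATCCCCct
Rel, match beginning 91 bases before the start: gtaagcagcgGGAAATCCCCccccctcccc
Nfkb2, match beginning 11 bases before a RefSeq start: ggggccgaaaGGGGCTTTCCc
Nfkb2, match beginning 225 bases before a later RefSeq start: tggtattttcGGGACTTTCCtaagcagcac

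The libraries were deep. The WT library held 10866 barcodes with 56182065 UMIs (unique molecular identifiers, each 1 captured transcript), against 9495 barcodes and 60283285 UMIs for Pac1-/-. After removal of barcodes with under 500 detected genes or over 10% mitochondrial UMIs, 8394 WT and 7087 Pac1-/- cells remained, with medians of 4186.5 and 5577 UMIs. In WT 99.5% and in Pac1-/- 99.3% of cells had at least 2 of 10 ILC2 markers. Summed epithelial markers came to 54.0 counts per 1000000 UMIs (CPM) in WT and 79.1 CPM in Pac1-/-, and erythroid markers to 61.3 and 205 CPM, while NK and stromal markers stayed under 3 CPM in each. Of the 6 T cell, 5 myeloid and 4 mast cell markers, 1, 2 and 1 were at 0 in WT. The 2 libraries shared 29 barcodes, 15 of which passed the filter. Dusp2, the deleted gene, had 1419 UMIs (26.0 CPM) in WT and 5 UMIs (0.0857 CPM) in Pac1-/-, as the labels say.

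Inhibitor transcripts outnumbered subunit transcripts in both genotypes, and the members stood in the same order in each. Chemistry that counts the 3′ end of a transcript makes the levels of different genes comparable without division by length to a first order. Nfkbia, which encodes IkB-alpha, was the most abundant member with 3399 CPM in WT and 3737 CPM in Pac1-/-, rank 45 of all genes detected in each library. Tnfaip3, the gene of the ubiquitin-editing enzyme A20, followed with 1678 and 1582 CPM. Nfkb1, which encodes p105 and its product p50, stood at 1548 CPM in WT and 1280 CPM in Pac1-/-. Nfkbiz, the gene of the nuclear regulator IkB-zeta, had 1036 and 938 CPM. These 4 genes were each found in over 60% of cells when all cells were compared at 1500 UMIs, with Nfkbia reaching 88.1% in WT and 84.8% in Pac1-/-.

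The middle of the order was held by Rel and Nfkbid. Rel, which encodes the lymphocyte subunit c-Rel, had 582 CPM in WT and 386 CPM in Pac1-/-. Nfkbid, the gene of the nuclear IkB protein IkB-NS, had 419 and 345 CPM. The other 4 members were scarce. Nfkb2, the gene of p100 and p52, had 107 CPM in WT and 78.7 CPM in Pac1-/-. Relb, the usual partner of p52, had 63.0 and 63.1 CPM. Rela, the gene of the transactivating subunit p65, had 62.6 and 47.9 CPM, and its interval in WT (60.6 to 64.8 CPM) overlapped that of Relb (60.9 to 65.1 CPM), so these neighbours in the order could not be told apart there. Bcl3, which encodes a nuclear IkB protein that binds p50 and p52, was lowest with 19.7 and 16.6 CPM. Each other neighbouring pair in the order differed beyond its counting intervals in both libraries.

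**Figure D1:**
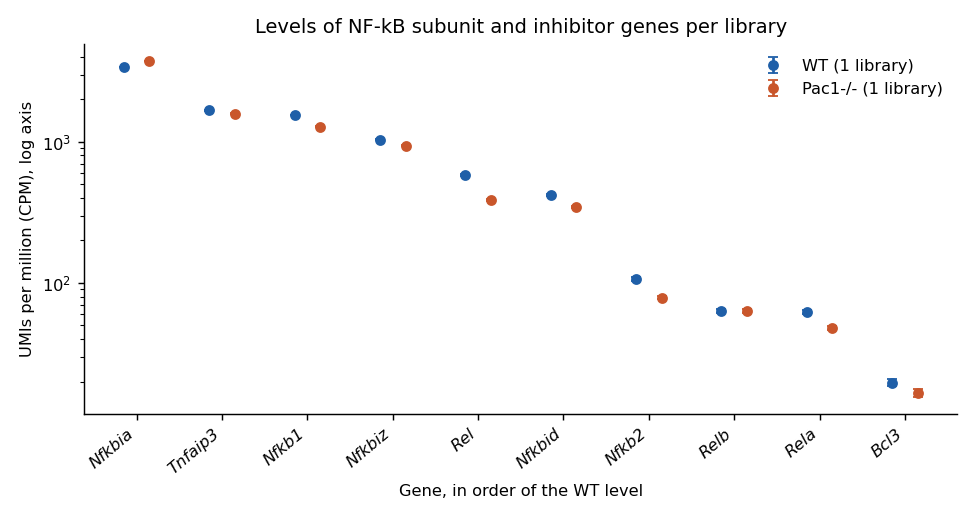
Counts per 1000000 UMIs (CPM, log axis) of the 10 members in the WT and the Pac1-/- library, ordered by the WT level, with 95% Poisson intervals that are mostly smaller than the points. Rel and Nfkb2 lie visibly lower in Pac1-/- (582 against 386 CPM and 107 against 78.7 CPM), whereas Nfkbia lies slightly higher (3399 against 3737 CPM).

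Summed over the members, the 5 inhibitors had 2.77 UMIs per subunit UMI in WT (95% interval, 2.76 to 2.79) and 3.57 in Pac1-/- (3.54 to 3.59). Nfkbia alone gave 51.9% of the inhibitor UMIs in WT and 56.5% in Pac1-/-, and Nfkb1 gave 65.5% and 69.0% of the subunit UMIs. Without these leading genes the ratio was 3.87 in WT and 5.01 in Pac1-/-. These ratios follow the grouping by name and do not measure a balance of repressing and activating proteins. All 10 members together made up 0.891% of WT and 0.847% of Pac1-/- UMIs.

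Nfkbia was also the most uneven member from cell to cell. At equal depth its variance over its mean was 3.93 in WT and 5.69 in Pac1-/-, against medians of 1.20 and 1.25 for the 32 and 40 genes with a like mean, and only 1 and 2 of those genes exceeded it. For Rel the values were 1.78 in WT and 1.81 in Pac1-/- against medians of 1.20 and 1.12, and 11 of 90 and 14 of 169 like genes exceeded it. Relb and Bcl3 scattered as counting alone would give, with ratios between 0.994 and 1.02 in the 2 libraries.

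Between the genotypes, Rel differed most among the members, being lower in Pac1-/-. Nfkbia differed least relative to the median gene over all cells. Ratios are given on the log2 scale relative to the median gene, because at equal CPM the median of 12726 genes stood 0.19 higher in Pac1-/-. A gene was counted as different at 1.5-fold, which is 0.585 on that scale. Rel was lowest at -0.78 (95% interval, -0.80 to -0.75), a 1.72-fold difference, followed by Nfkb2 at -0.62 (-0.68 to -0.57). These 2 of 10 members passed 1.5-fold downward and 0 of 10 passed it upward. Among all genes 13.0% passed it downward and 8.51% upward, so the count of members is near that of other genes.

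The other subunits fell short of that mark. Rela stood at -0.57 (-0.65 to -0.50), Nfkb1 at -0.46 (-0.47 to -0.45) and Relb at -0.18 (-0.25 to -0.12). The interval of Rela overlapped that of Nfkb2, so the order of these genes is not settled. Among the inhibitors Nfkbid stood at -0.47, Bcl3 at -0.43, Nfkbiz at -0.33, Tnfaip3 at -0.27 and Nfkbia at -0.05. The median was -0.57 over the 5 subunits and -0.33 over the 5 inhibitors, with all genes at 0 by construction. All 10 values lay below the median gene, but the sign of 2 depended on the scale. As counted, without centring on the median gene, Nfkbia was higher in Pac1-/- by 0.14 and Relb stood at 0.00, and only Rel, at -0.59, remained past 1.5-fold.

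Fewer Pac1-/- cells carried Il5, Il13 or Cxcl1, so the ratios were also taken within classes of cells. Cells were reduced to 1500 UMIs by random thinning, and a cell was said to have a gene when it kept at least 1 UMI of it. Among 7634 WT and 6564 Pac1-/- cells, Il5 was found in 2534 (33.2%) and 1267 (19.3%), Il13 in 1074 (14.1%) and 594 (9.05%), Cxcl1 in 906 (11.9%) and 431 (6.57%), and Il2 in 552 (7.23%) and 496 (7.56%). Il5 and Il13 encode the type 2 effector cytokines, Cxcl1 a chemokine that attracts neutrophils, and Il2 a growth factor of lymphocytes. Without thinning these shares were higher, for Il5 53.1% in WT and 39.5% in Pac1-/-. In thinned cells with B cell markers, which should lack it, Il5 kept a UMI in 3 of 10 WT and 1 of 23 Pac1-/- cells (median depth before thinning, 4297.5 and 4652 UMIs), which leaves 95% limits of 6.67% to 65.2% and 0.110% to 21.9%. Il13 did so in 3 and 1 of them, Il2 in 0 and 1, and Cxcl1 in 0 and 3. For each gene and library the wide interval of these few cells included the share of all cells at the same 1500 UMIs. The cells were also not shown to be B cells rather than doublets. The check therefore cannot say how many cells with 1 UMI picked up free RNA, and such cells cannot be told from the others.

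Rel remained lower in Pac1-/- in each class. In cells with none of the 4 genes it had 355 CPM in WT and 260 CPM in Pac1-/- (-0.59 on the log2 scale, centred on that class). It had 742 and 584 CPM in cells with Il5 (-0.46), 765 and 697 CPM in cells with Il13 (-0.21) and 799 and 563 CPM in cells with Cxcl1 (-0.56). Nfkb1 came closer to level in the effector classes. It stood at -0.44 in cells with none of the 4 genes, at -0.12 in cells with Il5, where both genotypes had 1821 and 1820 CPM, at -0.04 in cells with Il13 (-0.13 to 0.04), at -0.19 with Il2 and at -0.21 with Cxcl1. Nfkbia went from -0.08 in cells with none of the 4 genes to 0.14 in cells with Il5, 0.33 in cells with Il13, 0.19 in cells with Il2 and 0.25 in cells with Cxcl1. That is, in this thinning its level in Pac1-/- exceeded that in WT within each effector class. It stood at 3817 against 3190 CPM with Il5 and at 4448 against 3364 CPM with Il13. In CPM it was also higher in Pac1-/- in cells with none of the 4 genes (3016 against 2888 CPM). Nfkbid stayed lower, between -0.57 and -0.33, in cells with Il5, Il13 or Cxcl1, and stood at -0.17 (-0.39 to 0.04) in cells with Il2. No difference between classes was tested. These class values rest on the thinning shown, and their spread over further random draws of UMIs is not given. For Nfkbid in Pac1-/-, this thinning lay outside the further draws of the comparison below for Il5, Il13 and Il2. The same held for Nfkbia in Pac1-/- with Il2, so these values are not settled.

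**Figure D2:**
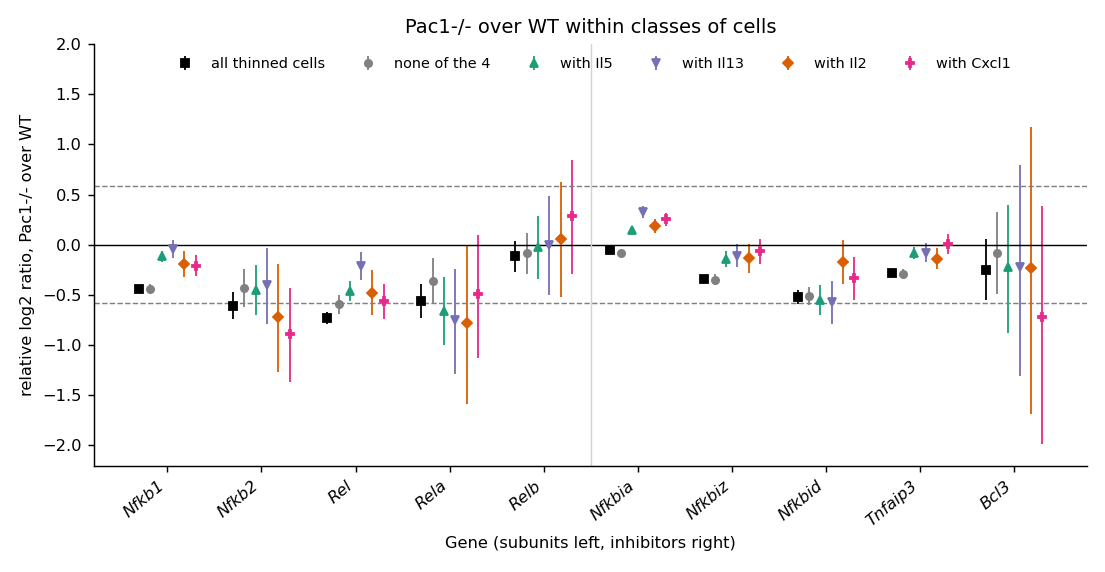
Pac1-/- over WT for each member within classes of thinned cells, as log2 ratios relative to the median gene of that class, with 95% counting intervals. The spread over further draws of UMIs is not drawn. The solid line is no difference and dashed lines mark 1.5-fold. Rel lies below 0 in each class (-0.59 with none of the 4 genes, -0.46 with Il5), Nfkb1 moves close to 0 in cells with Il5 or Il13, and Nfkbia lies above 0 in the 4 effector classes.

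Cells with Il5 transcripts held more subunit RNA. The comparison of cells with and without a UMI of an effector gene was made within each library, and a member was counted only when it passed 1.5-fold in both. With Il5, Rel went from 407 to 742 CPM in WT and from 297 to 584 CPM in Pac1-/-, log2 ratios relative to the median gene of 1.03 (0.96 to 1.11) and 1.13 (1.03 to 1.24). Nfkb1 went from 1228 to 1821 CPM in WT and from 1036 to 1820 CPM in Pac1-/- (0.73 and 0.97). Nfkb2 stood at 0.64 and 0.67. These 3 of the 10 members were counted as higher and 0 as lower, against 4.21% of 7214 genes higher and 0.804% lower. The call of Nfkb2 rests on the random draw of UMIs: in 10 further draws Nfkb1 and Rel passed in 10 and Nfkb2 in 2.

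None of the 5 inhibitors among the members reached 1.5-fold with Il5. Of 11 inhibitors outside the members, 4 did in both libraries, as given further below. Tnfaip3 stood at 0.32 in WT and 0.46 in Pac1-/-, Nfkbiz at 0.28 and 0.43, and Nfkbia at 0.20 and 0.36. Nfkbid was level, with 423 CPM in cells without and 370 CPM in cells with Il5 in WT (-0.03, interval -0.12 to 0.06), and -0.11 in Pac1-/-. Further draws put the latter between 0.00 and 0.20, so its sign is not settled. Rela stood at 0.65 and 0.34, and Relb (0.20 and 0.23) and Bcl3 (0.25 and 0.18) had intervals that included 0 in both libraries. In Pac1-/- further draws put Relb between 0.24 and 0.53 and Rela between 0.35 and 0.66, above the values shown. The draw shown therefore does not settle Relb there.

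In cells with Il13, Rel again led. It had 478 CPM without and 765 CPM with Il13 in WT (0.76), and 318 and 697 CPM in Pac1-/- (1.24), and was the 1 member counted as higher, with 1.81% of 4971 genes higher and 0.624% lower. Nfkb1 passed the mark in Pac1-/- (0.80) but not in WT (0.46). Nfkbia stood at 0.20 in WT and 0.54 in Pac1-/-, Nfkbiz at 0.29 and 0.45, and Tnfaip3 at 0.20 and 0.34. Nfkb2 stood at 0.39 and 0.52 and Rela at 0.45 and 0.13, while Relb (0.04 and 0.08) and Nfkbid (0.08 and -0.07) had intervals that included 0 in both libraries. Further draws put Nfkbid between 0.08 and 0.21 in WT and between 0.15 and 0.55 in Pac1-/-, and Relb between -0.03 and 0.57 and between 0.12 and 0.47, so neither is settled by the draw shown. For Rela in Pac1-/- further draws ranged from 0.21 to 0.70, above the value shown. Bcl3 fell under the minimum of 20 expected UMIs here and in the Il2 and Cxcl1 comparisons, which leaves 9 members compared.

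With Il2, Nfkbia and Tnfaip3 were higher by less than 1.5-fold, and the values of Rel and Nfkb1 depended on the cells they were compared with. Nfkbia had 3086 CPM without and 3756 CPM with Il2 in WT (0.29, interval 0.24 to 0.34), and 3316 and 4583 CPM in Pac1-/- (0.48, 0.43 to 0.53, and 0.35 to 0.44 in further draws). Tnfaip3 stood at 0.22 and 0.30, and Nfkbid at 0.22 and 0.52, the last value with a range of 0.19 to 0.40 over further draws. Rel stood at -0.08 in WT and 0.12 in Pac1-/-, and Nfkb1 at -0.10 and 0.09. Against cells with none of the 4 genes Rel stood at 0.50 and 0.57 and Nfkb1 at 0.20 and 0.40. These cells with Il2 could also hold the other genes, and 28.4% of them had Il5 in WT. With Il2 alone, Rel had 349 CPM in WT against 355 CPM with none, and Nfkb1 1164 against 1187 CPM. In Pac1-/- Rel had 309 against 260 CPM and Nfkb1 1129 against 966 CPM. Nfkbiz stood at 0.11 and 0.26, and Nfkb2 (-0.02 and -0.22) and Relb (0.07 and 0.18) had intervals that included 0. Rela stood at -0.34 and -0.65 from 41 and 23 UMIs with Il2, but further draws ranged from -0.46 to 0.10 in WT and from -0.85 to 0.11 in Pac1-/-, so its sign is not settled. None of the 9 members passed 1.5-fold in either direction in both libraries, and of 4133 genes 0.0726% passed it upward and 0.121% downward.

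With Cxcl1, Rel was again counted as higher. It went from 480 to 799 CPM in WT (0.83) and from 338 to 563 CPM in Pac1-/- (0.82), the 1 member to pass in both libraries, against 0.896% of 4019 genes higher and 0.299% lower. Nfkbia went from 3015 to 4024 CPM (0.52) and from 3300 to 5002 CPM (0.68), its widest gap among the 4 genes in each library. Nfkbiz stood at 0.47 and 0.60, Tnfaip3 at 0.36 and 0.51, Nfkbid at 0.39 and 0.42, and Nfkb1 at 0.48 and 0.57. Rela (0.23 and 0.14) and Relb (-0.15 and 0.14) had intervals that included 0. Further draws put Relb between -0.04 and 0.42 in WT, so its sign there is not settled. Nfkbia and Nfkbiz passed 1.5-fold in Pac1-/- but not in WT, and Nfkb2 in WT (0.62) but not in Pac1-/- (0.13), where further draws put the WT value between 0.24 and 0.67. Without thinning, Rel did not pass either, at 0.53 in WT and 0.50 in Pac1-/-.

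**Figure D3:**
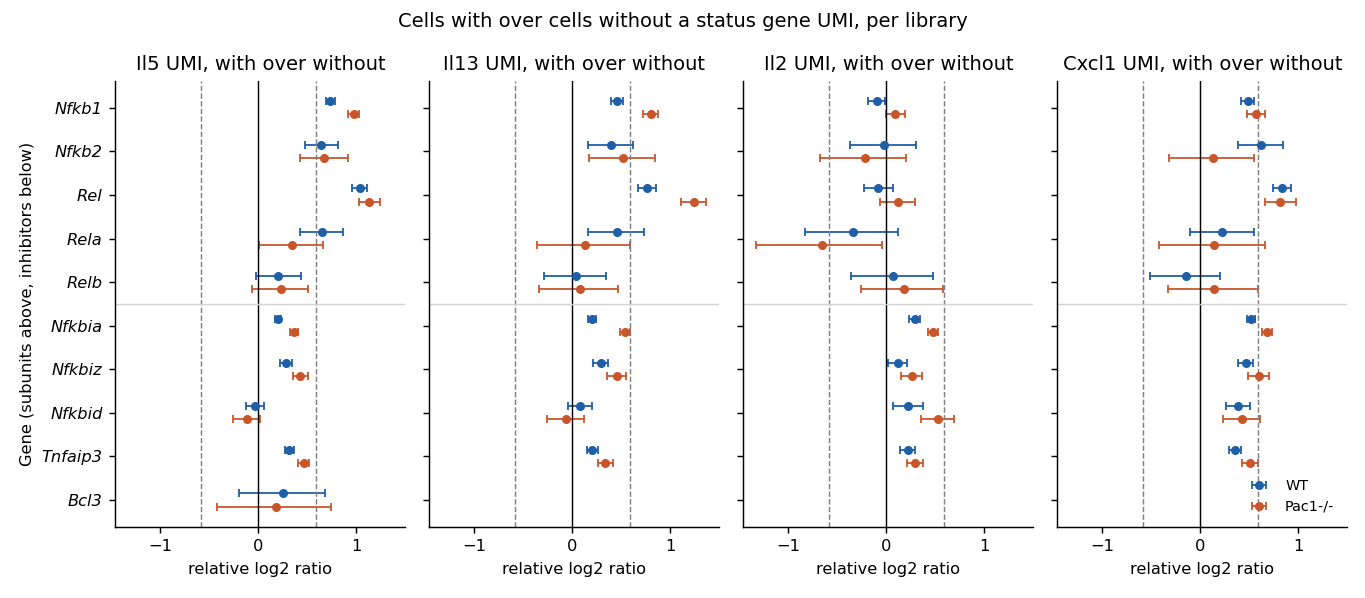
Log2 ratios, relative to the median gene, of cells with over cells without a UMI of Il5, Il13, Il2 or Cxcl1 for each member in the 2 libraries, with 95% counting intervals and dashed lines at 1.5-fold. Rel lies at 1.03 and 1.13 for Il5 and near 0 for Il2, while Nfkbia lies at 0.29 and 0.48 for Il2 and at 0.52 and 0.68 for Cxcl1. Bcl3 is drawn only for Il5.

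Cells with an effector gene also differed in other measures. Before thinning, WT cells with Il5 had a median of 5502 UMIs against 4151.5 without, and Pac1-/- cells 7234 against 5619. Predicted doublets made up 13.1% of WT cells with Il5 and 7.59% of those without. The 12 dissociation and heat shock genes summed to 13641 CPM with and 15657 CPM without Il5 in WT, but to 22668 CPM with and 18461 CPM without Il2 in Pac1-/-. Summed ILC2 markers were higher with Il5 (9000 against 6597 CPM in WT and 9129 against 6587 CPM in Pac1-/-). Summed epithelial markers were lower with Il5 (34.2 against 127 CPM in WT), and erythroid markers were higher with Cxcl1 (128 against 34.2 CPM in WT). The part of doublets and stress genes in the ratios was not tested beyond the following values. In cells of 3000 to 8000 UMIs, Rel stood at 1.21 in WT and 1.33 in Pac1-/- for Il5 and Nfkb1 at 0.84 and 1.12, as large as over all depths, but Nfkb2 stood at 0.55 in WT there, which left 2 members counted as higher. Without predicted doublets 3 members were counted.

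The 4 genes overlap in cells, so cells were also split by the exact combination they held. Of the WT cells with Il13, 51.0% had Il5, and 21.6% of those with Il5 had Il13. Combinations with at least 50 cells in each library gave 8 classes. Subunit RNA was highest in cells with Il5 and Il13 together, at 3367 CPM in 416 WT cells and 3320 CPM in 203 Pac1-/- cells, against 1742 and 1407 CPM in cells with none of the 4. In WT, cells with Il5 and Cxcl1 came close, at 3261 CPM, with intervals for Rel and Nfkb1 that overlapped those of cells with Il5 and Il13. In Pac1-/- they had 2926 CPM, and the intervals for Rel and Nfkb1 overlapped there too. From cells with none to cells with Il5 and Il13, Rel went from 355 to 904 CPM in WT and from 260 to 821 CPM in Pac1-/-. Nfkb1 went from 1187 to 2176 CPM and from 966 to 2210 CPM. Nfkbia did not follow in WT, at 2888 CPM in cells with none and 2796 CPM with Il5 and Il13, whereas in Pac1-/- it went from 3016 to 3875 CPM.

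The ratio of RNA of the 5 listed inhibitors to that of the 5 subunits therefore spanned a wide range. It covers these genes only, and inhibitors outside the members that were higher with Il5 are given further below. With Il5 and Il13 there were 1.76 inhibitor UMIs per subunit UMI in WT (1.66 to 1.85) and 2.05 in Pac1-/- (1.90 to 2.21). With none of the 4 genes there were 3.25 (3.18 to 3.32) and 3.87 (3.78 to 3.96). With Il2 alone there were 3.79 (3.51 to 4.10) and 4.69 (4.36 to 5.05), and 3.60 to 3.94 and 4.35 to 4.74 in 10 further draws. These ranges overlapped those of cells with Il5 and Il2 in WT (2.80 to 3.65) and of cells with Cxcl1 alone in Pac1-/- (4.02 to 4.46), so the class at the top is not settled. In the draw shown, the ratio was higher in Pac1-/- in each of the 8 classes. The intervals of the genotypes overlapped for Il13 alone and for Il5 with Il2, and the ranges over further draws for the latter only. Without Nfkbia and Nfkb1 the ratio in the draw shown was lowest with Il5 and Il13 (2.62 in WT and 2.65 in Pac1-/-) and highest with Il2 alone (5.61 and 6.58). For Il13 alone it was then 3.91 in WT and 3.84 in Pac1-/-.

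**Figure D4:**
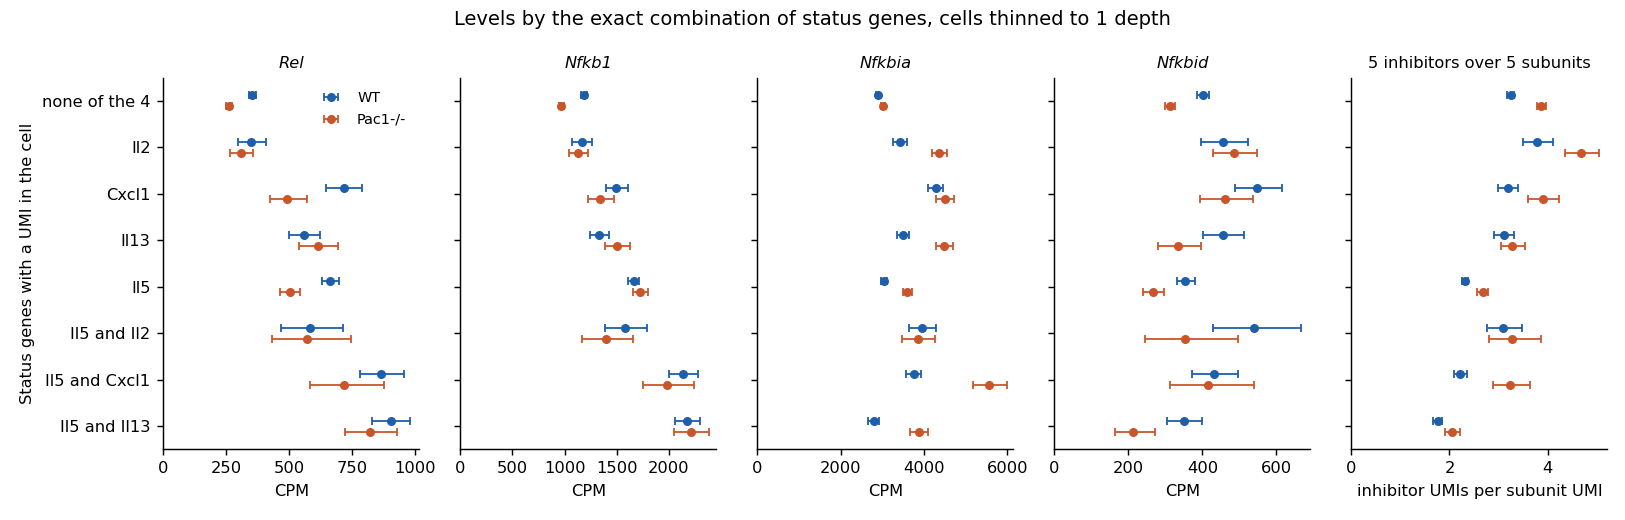
CPM of Rel, Nfkb1, Nfkbia and Nfkbid, and inhibitor UMIs per subunit UMI, in 8 classes of thinned cells defined by the exact set of effector genes with a UMI, for both libraries with 95% counting intervals. Rel and Nfkb1 are high in cells with Il5 and Il13 (904 and 2176 CPM in WT) and with Il5 and Cxcl1. In the draw shown the ratio is lowest in cells with Il5 and Il13 (1.76 in WT and 2.05 in Pac1-/-) and highest with Il2 alone (3.79 and 4.69). Further draws left the class at the top unsettled.

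By the number of effector genes in a cell, Rel climbed at each step, from 355 CPM with 0 to 618 with 1, 824 with 2 and 959 with 3 or 4 in WT, and from 260 to 479, 710 and 760 in Pac1-/-. Tnfaip3 went from 1461 CPM with 0 to 1914 CPM with 3 or 4 in WT and from 1324 to 1800 CPM in Pac1-/-. Nfkbiz went from 890 to 1273 CPM and from 774 to 1227 CPM. Nfkbid had 402 CPM with 0 and 353 CPM with 3 or 4 in WT, and 312 and 293 CPM in Pac1-/-, with overlapping intervals in each library. The last class held 155 WT and 50 Pac1-/- cells, and its intervals overlapped those of the class before for Rel in both libraries.

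The members varied together to different degrees over the 8 classes. Pearson's r was taken over the 16 class means of the 2 libraries, each centred on its library mean, and is a description because the classes come from shared libraries. Nfkb1 and Rel moved together (r = 0.93, and 0.93 to 0.98 in 10 further draws of UMIs). Nfkbiz and Tnfaip3 (r = 0.92, draws 0.69 to 0.92) did so too, as did Nfkbia with either of them (0.86 and 0.83). Rel was also related to Nfkbiz (0.71, draws 0.53 to 0.69) and Tnfaip3 (0.60), and Nfkb1 to the same pair (0.60 and 0.59). Among the subunits, Nfkb1 had r of 0.76 with Rela and 0.69 with Nfkb2, and Rel had 0.69 and 0.66. Further draws put the values for Rela lower, at 0.34 to 0.66 with Nfkb1 and 0.23 to 0.66 with Rel. Nfkb1 and Nfkbia had r of 0.24, and Nfkb1 and Nfkbid had r of -0.42 (draws -0.55 to -0.15). Relb and Bcl3, with few UMIs per class, followed no other member closely. Cell by cell, the 45 pairs of members were found together 0.91 to 1.46 times as often as the product of their shares in WT and 0.89 to 1.55 times in Pac1-/-, with Nfkb1 and Rel at 1.12 and 1.16. Pairs of genes outside the members were not taken, so nothing is read from these values.

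Of 7002 other genes with at least 500 UMIs in each library, those most like Nfkb1 over the 16 class means were Nrip1 (r = 0.99), Il2ra, the high-affinity IL-2 receptor chain (0.98), and Mpp7 (0.97). Those most like Rel were Eprs, Srgn, which encodes the granule proteoglycan serglycin, and Rora, a transcription factor required for ILC2 development (0.97 each). The genes nearest to Nfkbid were Fosb (0.95), Map3k8, the kinase TPL2 (0.88), and Gadd45b, a stress-response gene (0.87). Nfkbiz was most like Pim1 (0.94), Nr4a2 (0.91) and Atf3 (0.90), and Tnfaip3 most like Csf2, the gene of GM-CSF (0.91), Pim1 (0.91) and Atf3 (0.90). Nfkbia had Frmd4b (0.83), Atf3 (0.79) and Map3k8 (0.79). Nfkb2 was nearest to Arf4 (0.93), Tnip1, which encodes an A20-binding inhibitor (0.93), and Ywhaz (0.89), and Rela to Ormdl3, Eif3a and Usp9x (0.89 to 0.88). Relb (Cdc42ep3, Tanc2 and Tmem170b, 0.84 to 0.76) and Bcl3 (Ppp2r3d, Tmem259 and Cdc23, 0.89 to 0.79) had few UMIs behind their patterns. These genes are the highest of 7002 over 16 points in the draw shown. Their places over further draws are not given.

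The rest of the pathway is given beside the shares of all genes, 13.0% lower and 8.51% higher in Pac1-/-. Of 30 kinases and adaptors, 4 were at least 1.5-fold lower and 1 higher (median -0.15), a count near that of all genes. The lower ones were Irak2 (80.5 CPM in WT and 52.9 CPM in Pac1-/-, -0.79) and Bcl10 (-0.75), adaptors of IL-1 family and antigen receptor signalling, Birc3 (-0.67), a ubiquitin ligase, and Map3k14 (-0.66), the kinase that starts p100 processing. The higher one was Tradd (5.50 and 13.7 CPM, 1.13), the adaptor of TNF receptor 1. Of 13 other inhibitors, 3 were lower and 0 higher (median -0.41), namely Otulin, a linear deubiquitinase (-0.98), Nfkbib, the gene of IkB-beta (-0.70), and Tnip3 (-0.68).

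Of 15 receptors that could be compared, 4 were lower and 3 higher (median -0.17), to be read against the same shares of all genes. Tnfrsf1b, which encodes TNF receptor 2, had 38.7 CPM in WT and 16.4 CPM in Pac1-/- (-1.43), Tnfrsf9, which encodes 4-1BB, -1.13, Tnfrsf4, which encodes OX40, -0.85, and Il18rap, a subunit of the IL-18 receptor, -0.62. The higher ones, Tnfrsf13c, Tlr2 and Tnfrsf1a, stood under 2 CPM in each library. Il1rl1, the receptor of IL-33, did not pass and stood at -0.35. Of 24 target genes compared, 5 were lower and 2 higher (median -0.26). Bcl2a1d (-1.18) and Bcl2a1b (-0.99), survival genes whose near-identical copies can share reads, Cd44 (-0.86), an adhesion receptor, and Ptgs2 (-0.70), which encodes cyclooxygenase-2, were lower, and so was Plau, named after its values were seen, at under 1 CPM with an interval that included 0. The chemokine genes Ccl3 (2.05 and 5.95 CPM, 1.35) and Ccl4 (0.62) were higher. The 12 dissociation and heat shock genes had a median of 0.19. Of them 1 passed 1.5-fold upward, Hspa1a at 0.80, and 1 downward, Atf3 at -0.66, while Egr1 stood at -0.52. Their part in the members' values was not tested.

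For the wider lists the all-gene shares are again 4.21% higher and 0.804% lower with Il5. Of 27 kinases and adaptors compared, 0 passed in either direction. Of 11 other inhibitors, 4 were higher, Tnip1 (0.93 in WT and 0.75 in Pac1-/-), Nfkbie, which encodes IkB-epsilon (0.80 and 0.90), Zc3h12a, the gene of the RNase Regnase-1 (0.71 and 0.84), and Nfkbib (0.74 and 0.60). Of 20 target genes, 5 were higher, led by the chemokine gene Cxcl2 (1.16 and 1.52), with Ehd1 (0.94 and 1.19), Rgs1 (0.83 and 0.82), Csf2 (0.76 and 1.04) and Ptgs2 (0.72 and 1.73). Of 9 receptors, 5 were higher, Tnfrsf1b (1.10 and 0.94), Il18rap (0.93 and 0.78), Il18r1 (0.76 and 0.68), Tnfrsf18, which encodes GITR (0.63 and 0.63), and Il1rap (0.69 and 0.59, the latter with an interval that included 0, named after its values were seen). Atf3 was the 1 dissociation gene higher (0.64 and 0.87), while Hspa1b (-0.68 and -0.66) and Dnajb1 (-0.66 and -0.76), both heat shock genes, were lower.

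With the other 3 effector genes fewer genes were compared and fewer of all genes passed, 1.81% higher with Il13, 0.0726% with Il2 and 0.896% with Cxcl1. With Il13, Cxcl2 (0.70 and 1.45), Csf2 (0.74 and 1.04), Ehd1 (0.77 and 0.95), Bcl2a1b (0.81 and 0.79) and Bcl2a1d (0.59 and 1.15) were higher among 17 targets, and Nfkbib (0.62 and 0.60) among 10 other inhibitors. With Il2, only Tnf, a classical NF-kB target that encodes TNF, was higher (0.70 and 0.79), 1 of 16 targets. With Cxcl1, Cxcl2 (1.75 and 1.65) and Csf2 (0.87 and 1.07) were higher among 15 targets, together with Atf3 (0.75 and 1.07). No kinase, adaptor or receptor of the lists passed the mark with any of these 3 genes.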

How the data were processed

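Lung ILC2s (live, lineage-negative, CD90.2+ ST2+ Sca-1+) were pooled within a genotype, and 3′ libraries were made with the Chromium v3.1 chemistry. The matrices deposited hold, for each barcode, unnormalized counts of UMIs by gene, made by the authors with Cell Ranger 6.1.1 on mm10 per the labels. The file headers name another version, and the annotation release was not given in the sources used here. The deposited gene identifiers and barcodes carry no other unit. Depth is given in the report.

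Computation used Python 3.11.15 (matplotlib 3.10.9, scikit-learn 1.9.0, pandas 2.3.3, scipy 1.17.1 and numpy 2.4.6). The study's own cell filter left fewer cells, and its thresholds were not given in the sources used here. Doublets were scored by simulated neighbours and kept (730 WT and 538 Pac1-/- cells predicted), and their removal was an alternative. Intervals are exact, of the Poisson kind for CPM, conditional binomial for ratios and Clopper-Pearson for shares, all at 95% and for counting error only. Ratios over all genes used a prior of 0.5 counts and genes with at least 20 expected UMIs in the smaller group. The thinning depth of 1500 UMIs kept over 90% of cells, leaving out 760 WT and 523 Pac1-/- cells. The calculation was tested on simulated counts. Gene positions came from the GENCODE annotation of GRCm38, which matched 32235 of 32285 identifiers. Nfkb1 overlaps the predicted gene Gm43430 on the same strand, so that reads could be shared between them.

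All 10 members are named between the genotypes and for each effector gene. Of the wider lists, genes past 1.5-fold are named, up to 5 in a direction, and of like patterns the 3 with the highest r. The members and lists were chosen with earlier results of these data known. Alternatives covered scaling, cell filters, doublets, cells with markers of other types, depth, the UMIs that define an effector cell and the expected UMIs of a gene.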

Additional observations from a re-analysis of the deposited data

Results flagged for a closer look

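Barcodes left out by the filter also held the members. The 2472 WT barcodes left out had 7900 CPM of the 10 genes together (95% interval, 7763 to 8039) and the 2408 Pac1-/- barcodes had 6832 CPM (6717 to 6950), against 8914 and 8475 CPM in the cells that passed. Both values lie far above the level that 3 counts would give (1.87 and 1.54 CPM). They were singled out because these barcodes entered no comparison. Nfkbid was lower in the barcodes left out, at 215 CPM in WT and 194 CPM in Pac1-/-, and Nfkb1 stood at 1479 and 1221 CPM.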

How the results depend on the processing

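No paired analysis was possible because each genotype had 1 library. No member's call turned its direction under any alternative. The 2 members lower in Pac1-/- became 1 as counted without centring on the median gene (Rel remained) and 1 in cells with none of the 4 effector genes, an alternative chosen after seeing the data. That count was 3 under the stricter cell filter, without predicted doublets and in cells of 3000 to 8000 UMIs, the last also chosen after seeing the data. In cells with none of the 4 effector genes, Nfkbid (-0.51) and Nfkb1 (-0.44) differed more than Nfkb2 (-0.43). In cells of 3000 to 8000 UMIs Rela (-0.67) stood slightly below Nfkb2 (-0.66). The 3 members higher with Il5 became 1 as counted, again Rel, 2 when thinned to 1000 UMIs, without thinning, with 100 expected UMIs or in cells of 3000 to 8000 UMIs, and 4 when an effector cell needed at least 2 UMIs. The 1 member higher with Il13 became 2 when an effector cell needed at least 2 UMIs and 3 against cells with none of the 4 genes. The 1 member higher with Cxcl1 became 0 without thinning, 3 with at least 2 UMIs and 4 against cells with none of the 4 genes. Of 90 single genotype values 49 moved by less than their counting interval and 41 by more, and 3 took the other sign, in Nfkbia and Relb. Of 684 single values for effector genes 465 moved by less and 219 by more, and 28 took the other sign. The causes were not tested. Depth limits Bcl3, Relb, Rela and Nfkb2, which were found in under 15% of cells at 1500 UMIs.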
